A study of Mus musculus with 12 samples.

Results

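Collagens are the main fibrous proteins of the space between cells, and each collagen chain is the product of its own gene. The 44 chains described here were all rows of the deposited count table whose mouse gene symbol has the form of Col, a number, a and a second number, out of 24421 rows. A chain was tested if it passed a filter on low counts, which kept 39 of the 44 chains and 14810 of all rows. Collagen chains assemble in the cell into triple helices, of 1 kind of chain or of several partners. Fibrillar trimers are cut and packed outside the cell into the fibrils of mesenchyme, skin and bone, type IV trimers form the network of basement membranes under epithelia and around vessels, and types II, IX and XI build cartilage. In the embryonic head, the neural crest gives rise to much of the mesenchyme, cartilage and bone of the face.

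The libraries came from C57Bl/6 mouse embryos at embryonic day 9.0 and 9.5, in which Eftud2, which encodes a GTPase in the U5 part of the spliceosome, had been targeted in the neural crest. At each stage there were 3 heterozygous libraries (Eftud2+/-, the controls, which thus carry 1 targeted allele too) and 3 homozygous libraries (Eftud2-/-), 12 in all, and no treatment is named. The labels give neural crest cells as the source and cranial nerve ganglia as the tissue, while the collection protocol describes heads, and no driver of the deletion, number of embryos per library or somite count per library is given. Nothing states that replicates were separate litters, so p-values measure only the spread between these libraries, which may be technical.

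Eftud2 itself was at 302, 275 and 279 CPM (counts scaled to the size of the library) in heterozygous and 236, 235 and 232 CPM in homozygous libraries at E9.0, and at 248, 255 and 264 CPM against 226, 221 and 226 CPM at E9.5. Its genotypes were apart at each stage, with a log2 fold change of -0.29 ± 0.05 in E9.0 libraries (± standard error, as for every log2 fold change; edgeR adjusted p = 0.0193) and -0.19 ± 0.05 in E9.5 libraries (edgeR adjusted p = 0.0906, not past the threshold of 0.05 used throughout). The libraries held 13914543 to 31172708 counts each. Marker genes of many cell types were present. The 5 heart muscle markers summed to 27.6 to 229.8 CPM at E9.0 and 1314 to 2100.2 CPM at E9.5. The 5 primitive erythroid markers summed to 533.9 to 1164 CPM and 2778 to 5181 CPM. The 6 cranial ganglion neuron markers lay between 64.5 and 97.0 CPM and the 5 migrating crest markers between 131.6 and 258.8 CPM. Of the crest markers, 1 was lower in homozygous libraries at E9.0 and 4 at E9.5 (3 without heterozygous E9.5 replicate 2), beside 0.155% and 0.702% of all genes. In such bulk samples, fewer cells of a type and less RNA per cell cannot be told apart.

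Heterozygous E9.5 replicate 2 stood apart for the collagens. All collagen chains together reached 1899.6, 1991 and 2008 CPM in heterozygous and 2147, 2139.7 and 2285 CPM in homozygous libraries at E9.0, and 2843, 2148 and 2959 CPM and 3489.6, 3098 and 3171 CPM at E9.5. The middle value at heterozygous E9.5, from that library, lay within the E9.0 range, far below the other E9.5 libraries. Of the 12 libraries it also had the lowest sums for endothelial markers (206 CPM), mesenchyme markers (304 CPM), notochord markers (10.4 CPM), parietal endoderm markers (451 CPM) and yolk sac endoderm markers (4.31 CPM), and the highest for neural tube markers (737 CPM, against 558 to 680.3 CPM in the others). Whether its collagen values follow from these was not tested. Values without it are given beside many of the results below, not beside every one that it moved. It was singled out by these same collagen values, so p-values of fits without it are not independent of that choice. The share of all genes called in such fits is not given, so counts of calls without it lack that background.

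Per kilobase of transcript, the scale on which levels of different genes can be set side by side, 5 chains led. Col18a1, the core of a basement membrane proteoglycan, averaged 80.9 CPM per kb over the 12 libraries. Col2a1, the chain of cartilage fibrils, followed at 68.4, then Col4a1 at 59.8, Col3a1, a fibril chain of soft tissue, at 52.8, and Col4a2 at 36 CPM per kb. Below these came Col26a1 at 24.7, Col1a2 at 23.6 and Col5a1 at 13.4 CPM per kb. The leading order was not the same in every group: Col3a1 averaged 25.9 and 26.6 CPM per kb in the E9.0 groups, below Col4a2, but 97.1 CPM per kb in homozygous E9.5 libraries, beside Col18a1 at 90.5 and Col2a1 at 88.8. Col1a1, which forms type I fibrils with Col1a2 and is a main protein of bone, averaged 3.15 and 3.48 CPM per kb in the E9.0 groups and 7.51 and 10.1 in heterozygous and homozygous E9.5 libraries, below Col1a2 in each.

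**Figure D1:**
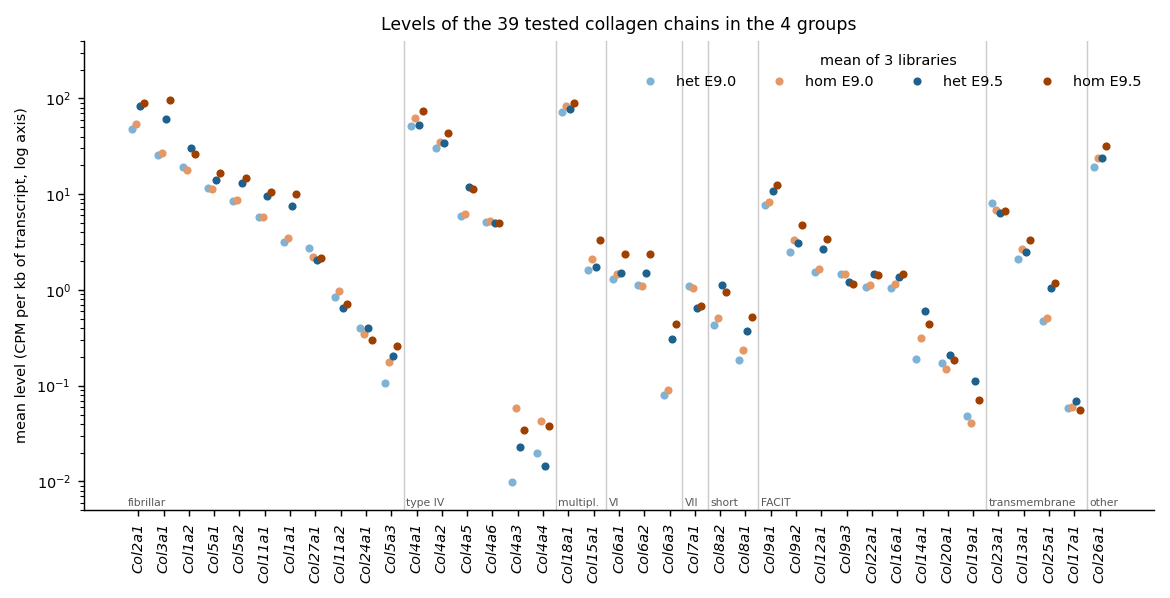
Mean level of each of the 39 tested collagen chains in the 4 groups, in CPM per kilobase of transcript on a log axis, ordered by class and then by level (points are means of 3 libraries, het for heterozygous, hom for homozygous, VI and VII for types VI and VII, FACIT for the fibril-associated chains). Col18a1, Col2a1, Col4a1, Col3a1 and Col4a2 are highest, and the points of E9.5 lie above those of E9.0 for most fibrillar chains.

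The share of collagen transcripts shifted between classes with stage. On the per-kb scale, fibrillar chains made up 36.9% ± 2.16 (SD, n = 3) of all collagen in heterozygous libraries at E9.0 and 47.5% ± 2.66 at E9.5. Type IV chains made up 26.9% ± 0.644 and 22.3% ± 0.904, and the multiplexins Col18a1 and Col15a1 together 21.4% ± 1.97 and 17.3% ± 2.69. In homozygous libraries the fibrillar share went from 34.3% ± 0.498 to 46.8% ± 1.31. The fibrillar share differed between stages by several SD in each genotype.

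At the bottom, 5 chains did not pass the filter. Col10a1, the chain of hypertrophic cartilage, had 0 counts in 9 libraries and at most 4 in any. Col6a4, Col6a5 and Col6a6, the alternatives to Col6a3 in type VI, and Col28a1 had between 0 and 14 counts per library. Of the tested chains, Col4a3 and Col4a4, the type IV chains of the kidney filter, had at most 13 and 12 counts. The 4 osteoblast markers summed to 0.583 to 2.77 CPM. Of these, Bglap and Ibsp, of mature bone, did not pass the filter, while Sp7, an earlier regulator of bone formation, did, at 1.28 to 1.96 CPM at E9.0 and 0.338 to 0.573 CPM at E9.5.

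The first question was how the chains changed from E9.0 to E9.5. In heterozygous libraries 15 of the 39 tested chains rose and 2 fell, or 43.6%, beside 35.2% of all tested genes (19.2% higher, 16.0% lower). In homozygous libraries 17 rose and 2 fell, or 48.7%, beside 35.4% of all genes (19.6% higher, 15.8% lower). When the libraries were scaled by total counts alone, 27 chains rose and 0 fell in heterozygous libraries, and the median of all genes itself moved to 0.38 on the log2 scale, so directions are relative to the bulk of genes. The share of all genes called with that scaling is not given. The median log2 fold change of all collagen chains was 0.37 in heterozygous and 0.52 in homozygous libraries, beside 0.01 for all genes in each. All 3 E9.5 libraries lay above all E9.0 libraries for 16 chains and below for 4 in heterozygous embryos (25.2% and 22.5% of all genes), and for 26 and 4 in homozygous ones (26.0% and 22.1% of all genes). Without heterozygous E9.5 replicate 2, 43 chains were tested, and the share of all genes called is not given. Of these chains 21 rose and 3 fell in heterozygous libraries. In homozygous libraries 22 rose and 3 fell, where the counts are the same but the test shares 1 estimate of the spread with the other groups. A fall in each, Col6a5 and Col6a4, was of a chain not tested with all 12 libraries. All 5 heart muscle and all 5 erythroid markers rose between the same stages in both genotypes, and their part in the collagen changes was not tested.

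Of the 11 fibrillar chains, 6 rose and 1 fell in each genotype, with a median log2 fold change of 0.66 in heterozygous and 0.58 in homozygous libraries. The 2 strongest were Col3a1 and Col1a1. Col3a1 was at 109, 164 and 159 CPM in heterozygous E9.0 libraries and then 402, 171 and 452 CPM at E9.5. In homozygous libraries it went from 149, 143 and 152 to 663, 444 and 514 CPM. Every E9.5 library lay above every E9.0 library of its genotype, but heterozygous E9.5 replicate 2 only just. The log2 fold change was 1.24 ± 0.34 (edgeR adjusted p = 0.0229) in heterozygous and 1.87 ± 0.35 (edgeR adjusted p = 0.00359) in homozygous libraries. Without that replicate the heterozygous change was 1.56 (edgeR adjusted p = 0.000271). The heterozygous call was lost in a fit of those groups alone and without E9.0 replicate 1 or 3 or E9.5 replicate 1 or 3 (edgeR adjusted p up to 0.0792).

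Col1a1 followed the same course, at 18.9, 20.3 and 16.9 CPM in heterozygous E9.0 libraries and then 60.3, 22.3 and 51 CPM at E9.5. Homozygous libraries were at 20.4, 19.7 and 21.8 and then 62.8, 56.7 and 59.6 CPM. It rose by a log2 fold change of 1.25 ± 0.31 in heterozygous libraries (edgeR adjusted p = 0.0129, lost in a fit of those groups alone and, at 0.0539, without E9.0 replicate 3) and 1.53 ± 0.31 in homozygous libraries (edgeR adjusted p = 0.00476). Leaving out heterozygous E9.5 replicate 2 gave 1.58 in heterozygous libraries (edgeR adjusted p = 1.6e-08). Its partner Col1a2 was at 88.2, 111 and 110.5 CPM and then 200.03, 90.7 and 201 CPM in heterozygous libraries, where the second E9.5 library fell inside the E9.0 range. The change of Col1a2 did not pass the test, at 0.66 ± 0.27 (edgeR adjusted p = 0.0935). Without heterozygous E9.5 replicate 2 it passed, at 0.95 (edgeR adjusted p = 9.26e-06). In homozygous libraries Col1a2 was at 86.4, 102 and 99.8 and then 159, 129.6 and 136 CPM, with no overlap, and its change of 0.56 ± 0.28 did not pass (edgeR adjusted p = 0.153) but did without heterozygous E9.5 replicate 2 (0.56, edgeR adjusted p = 0.000365).

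Col2a1, the fibril chain of cartilage, spread little between libraries. It was at 242, 251 and 248 CPM in heterozygous E9.0 libraries and then 394, 418 and 456 CPM at E9.5, and at 268, 260.5 and 293 and then 456, 449.7 and 454 CPM in homozygous libraries. All libraries of E9.5 were higher, by 0.78 ± 0.06 (edgeR adjusted p = 2.11e-07) and 0.73 ± 0.06 (edgeR adjusted p = 3.55e-07). Col11a1, the type XI chain that sets fibril width in cartilage, rose by 0.70 and 0.86, Col5a2 by 0.63 and 0.74, and Col5a1 by 0.29 and 0.58 on the log2 scale in heterozygous and homozygous libraries. The heterozygous calls of Col5a1 and Col5a2 were each kept in 2 of 6 fits that left out 1 library (edgeR adjusted p up to 0.101 and 0.0905, one of the 2 being that without E9.5 replicate 2). Col27a1, a fibrillar chain of developing cartilage, went the other way in heterozygous libraries, from 21.8, 20.4 and 20.7 to 14.7, 15.8 and 16.4 CPM (-0.42 ± 0.08, edgeR adjusted p = 0.00083), and homozygous libraries were at 16.5, 17.1 and 16.3 and then 15.2, 16.5 and 17.6 CPM. The Col27a1 values of homozygous libraries at E9.0 were already in the E9.5 range.

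The cartilage chains (Col2a1, Col9a1, Col9a2, Col9a3, Col11a1, Col11a2, Col27a1 and the untested Col10a1) moved in both directions. In heterozygous libraries 2 of the 7 tested rose and 1 fell, with a median of 0.31, and in homozygous libraries 3 rose and 1 fell, with a median of 0.52. Col11a2, partner of Col11a1, was at 5.43, 5.15 and 4.6 CPM and then 3.11, 4.05 and 4.55 CPM in heterozygous libraries (-0.37 ± 0.15, edgeR adjusted p = 0.07), and at 5.64, 5.9 and 6.28 and then 4.32, 4.64 and 4.01 CPM in homozygous ones, where it fell (-0.46 ± 0.15, edgeR adjusted p = 0.0273, lost without E9.0 replicate 2 or 3 or E9.5 replicate 1 or 3). Beside these, Sox9, the transcription factor of cartilage formation, fell in both genotypes, with log2 fold changes of -0.43 and -0.45 (edgeR adjusted p = 0.00117 and 0.000936, both lost when scaled by total counts alone), while Sox6, which acts with it in cartilage, rose by 0.34 and 0.66 (edgeR adjusted p = 0.0107 and 8.97e-05). The cartilage matrix gene Matn1 fell too (-1.37 and -2.43, the heterozygous call kept in 1 of 6 fits that left out 1 library). Its level was very low throughout, at 0.061 to 0.608 CPM, so its change carries little information.

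Type IV chains split with stage. Col4a5 was at 32.4, 41.6 and 40.9 CPM in heterozygous E9.0 libraries and then 82.2, 76.2 and 71.8 CPM at E9.5, and at 41.2, 44.3 and 37.5 and then 70.3, 81.9 and 72.4 CPM in homozygous libraries. It rose by 0.99 ± 0.09 (edgeR adjusted p = 1.2e-06) and 0.87 ± 0.09 (edgeR adjusted p = 4.7e-06), with no overlap between stages. Its partner Col4a6 was at 34.8, 32.5 and 35.8 CPM and then 33.8, 35.2 and 29.9 CPM in heterozygous libraries, and at 36.5, 36 and 32.7 and then 32.7, 34.9 and 32.3 CPM in homozygous ones. The stages of Col4a6 overlapped, with log2 fold changes of -0.06 ± 0.08 and -0.07 ± 0.08 whose sign depended on the scaling. The ratio of Col4a5 to Col4a6, per kb, was 0.948, 1.3 and 1.16 in heterozygous and 1.15, 1.25 and 1.17 in homozygous E9.0 libraries, and 2.48, 2.2 and 2.44 and 2.19, 2.39 and 2.28 at E9.5. A ratio within a library does not depend on how libraries were scaled, and here the stages were far apart in both genotypes (log2 differences 1.07 and 0.94, exact permutation p = 0.1 each, the smallest that 3 libraries against 3 can give).

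Col4a1 and Col4a2, which form the most common type IV trimer, changed less with stage. Col4a2 rose in homozygous libraries (0.32 ± 0.09, edgeR adjusted p = 0.0104) and was at 0.18 ± 0.09 in heterozygous ones (edgeR adjusted p = 0.132), where leaving out replicate 2 of E9.5 gave 0.30 (edgeR adjusted p = 0.00485). Col4a1 was at 0.04 ± 0.10 and 0.23 ± 0.10 (edgeR adjusted p = 0.792 and 0.0793), and without that replicate at 0.18 and 0.23 (edgeR adjusted p = 0.0531 and 0.00645), the second then past the threshold. Col18a1, with log2 fold changes of 0.11 ± 0.06 and 0.10 ± 0.06, did not pass in either genotype.

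Col4a1 with Col4a2 and Col4a5 with Col4a6 are neighbours that start head to head, as are Col4a3 and Col4a4, which had few counts. The promoter windows of the first 2 pairs (250 bases before to 50 after the gene start, RefSeq, GRCm38.p6) are printed because the members of 1 pair shared their direction in the genotype comparison below while those of the other parted with stage. These are unlike comparisons. The ratio of Col4a5 to Col4a6 overlapped between genotypes at both stages. That of Col4a1 to Col4a2 also shifted with stage in heterozygous libraries, without overlap but only by -0.15 on the log2 scale. Any link to the promoters was not tested. Col4a1 lies at chr8:11312777-11313076 on the minus strand and Col4a2 at chr8:11312555-11312854 on the plus strand, with starts 21 bases apart, so that 78 bases belong to both windows. Col4a6 lies at chrX:141474027-141474326 on the minus strand and Col4a5 at chrX:141475169-141475468 on the plus strand, with starts 1343 bases apart and no shared base. Each is written 5′ to 3′ on its own gene's strand, with capitals marking the GC box GGGCGG and the CCAAT box on either strand. None of these overlapped another in its own window.
Col4a1: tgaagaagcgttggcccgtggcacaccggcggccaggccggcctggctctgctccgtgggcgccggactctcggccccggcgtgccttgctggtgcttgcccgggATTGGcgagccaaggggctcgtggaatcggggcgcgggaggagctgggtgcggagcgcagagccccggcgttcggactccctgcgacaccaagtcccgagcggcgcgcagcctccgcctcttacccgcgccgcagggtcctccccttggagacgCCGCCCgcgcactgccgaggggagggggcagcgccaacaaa
Col4a2: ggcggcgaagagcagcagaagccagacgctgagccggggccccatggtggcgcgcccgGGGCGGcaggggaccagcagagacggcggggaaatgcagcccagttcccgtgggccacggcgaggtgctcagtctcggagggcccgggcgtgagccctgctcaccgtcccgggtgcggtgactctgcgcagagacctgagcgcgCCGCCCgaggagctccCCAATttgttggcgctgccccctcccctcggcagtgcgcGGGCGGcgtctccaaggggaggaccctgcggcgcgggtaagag
Col4a5: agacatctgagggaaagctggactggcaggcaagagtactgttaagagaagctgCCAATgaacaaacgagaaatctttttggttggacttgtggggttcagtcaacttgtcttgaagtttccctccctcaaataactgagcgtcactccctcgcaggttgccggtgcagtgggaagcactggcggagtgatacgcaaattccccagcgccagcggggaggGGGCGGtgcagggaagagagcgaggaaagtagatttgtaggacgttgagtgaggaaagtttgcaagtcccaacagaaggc
Col4a6: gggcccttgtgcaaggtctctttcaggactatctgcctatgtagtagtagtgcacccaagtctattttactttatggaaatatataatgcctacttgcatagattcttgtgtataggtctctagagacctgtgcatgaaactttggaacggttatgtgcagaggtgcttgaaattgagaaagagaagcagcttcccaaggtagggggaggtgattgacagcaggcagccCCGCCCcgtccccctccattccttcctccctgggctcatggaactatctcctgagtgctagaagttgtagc
The GC box was found 1 time in the Col4a1 window, 3 times in Col4a2, 1 time in Col4a5 and 1 time in Col4a6, and the CCAAT box 1 time each in Col4a1, Col4a2 and Col4a5 and 0 times in Col4a6. The GC box of the Col4a1 window lies in the bases shared with Col4a2 and is 1 of those 3, read from the other strand. TATAAA was searched on both strands too and was in none of these 4 windows. Of all 32851 windows of this length, 35.7% held the GC box, 37.4% the CCAAT box and 13.6% TATAAA. Of the 44 chains, 35 had 38 windows in the table, 23 of them with the GC box, 13 with the CCAAT box and 5 with TATAAA. A match is only a run of letters, and no binding was measured here.

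Col6a3, a low chain, had the largest rise with stage in both genotypes, and other low chains rose as well. Col6a3, the long chain of type VI, was at 0.44, 0.858 and 1.12 CPM in heterozygous E9.0 libraries and then 3.72, 1.67 and 3.91 CPM at E9.5, and at 1.05, 0.859 and 0.811 and then 4.55, 3.87 and 4.91 CPM in homozygous libraries. It rose by 1.85 ± 0.34 (edgeR adjusted p = 0.000535) and 2.29 ± 0.34 (edgeR adjusted p = 8.92e-05), with no overlap between stages. Col14a1, a fibril-associated chain, was at 1.1, 1.72 and 0.903 CPM and then 4.76, 2.03 and 4.97 CPM in heterozygous libraries (1.66 ± 0.33, edgeR adjusted p = 0.00118), with every E9.5 library above the E9.0 range. In homozygous libraries Col14a1 was at 2.41, 1.6 and 2.16 and then 2.87, 3.1 and 2.66 CPM, and its change of 0.50 ± 0.32 did not pass (edgeR adjusted p = 0.245). The difference between the 2 stage effects, tested as an interaction, was -1.16 ± 0.47 (edgeR adjusted p = 0.51) and did not pass.

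The short-chain Col8a2 and Col8a1, which form the sheets of vessel walls and cornea, rose in both genotypes. Col8a2 was at 1.25, 1.61 and 2.75 CPM and then 5.06, 3.26 and 6.36 CPM in heterozygous libraries and at 2.48, 2.52 and 1.55 and then 4.62, 4.11 and 3.64 CPM in homozygous ones, with no overlap between stages. The changes were 1.32 ± 0.28 and 0.91 ± 0.29 (edgeR adjusted p = 0.00201 and 0.023, the second lost without E9.0 replicate 3 or E9.5 replicate 1). Col8a1 rose by 1.03 and 1.13, the membrane-spanning Col25a1 by 1.13 and 1.20, and the fibril-associated Col12a1 and Col22a1 by 0.79 and 1.05, and 0.45 and 0.33. Col19a1, with 1 to 18 counts per library, rose in heterozygous libraries (1.26 ± 0.47, edgeR adjusted p = 0.0478), a call lost when any 1 of the 6 libraries was left out. The homozygous call of Col22a1 was lost without replicate 3 of either stage. In homozygous libraries Col6a1, Col6a2 and Col9a2 passed as well, by 0.73, 1.12 and 0.52. None of the 3 passed in heterozygous libraries, but without E9.5 replicate 2 Col6a2 did (0.60, edgeR adjusted p = 0.00275).

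Col7a1, the anchoring fibril chain under epidermis, had the deepest fall past the threshold. It was at 9.62, 10.5 and 10.1 CPM in heterozygous E9.0 libraries and then 5.27, 6.19 and 6.43 CPM at E9.5, and at 9.32, 9.11 and 10.8 and then 5.56, 7.03 and 6.04 CPM in homozygous libraries. The stages did not overlap, and it fell in both genotypes (-0.76 ± 0.12, edgeR adjusted p = 0.000181 in heterozygous, -0.65 ± 0.12, edgeR adjusted p = 0.000803 in homozygous libraries). Scaled by total counts alone, Col7a1 and Col27a1 kept their sign and lost the call.

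**Figure D2:**
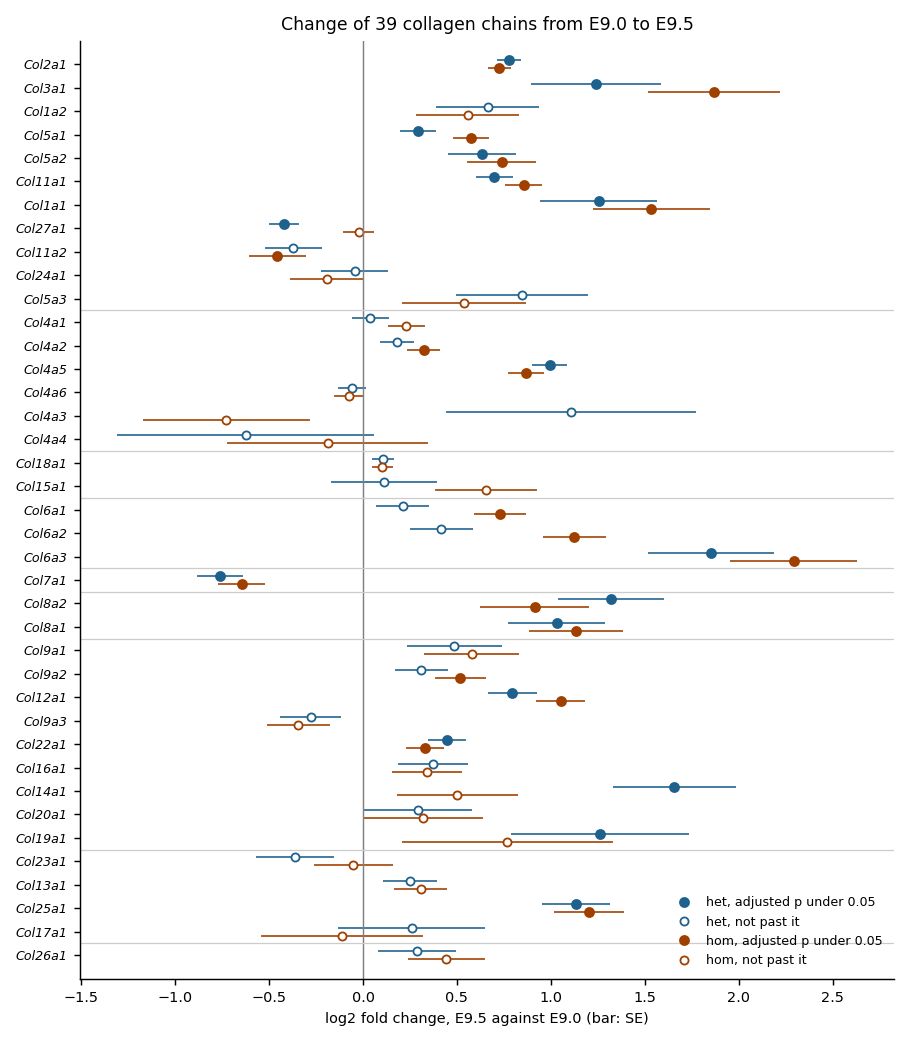
Log2 fold change from E9.0 to E9.5 of the 39 tested collagen chains in heterozygous (het) and homozygous (hom) libraries, by class in the order of the plot of levels (bars are standard errors, filled points passed an edgeR adjusted p of 0.05). Col6a3 lies farthest right at 1.85 and 2.29, and Col7a1 is a filled point on the left at -0.76 and -0.65.

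The second question was how homozygous differed from heterozygous libraries. At E9.0 none of the 39 chains passed, beside 0.587% of all genes. At an unadjusted edgeR p under 0.05 there were 8 chains (13.3% of all genes reached that), and with DESeq2 or with upper-quartile factors 1 chain passed, Col18a1. Col18a1 also passed without heterozygous E9.0 replicate 1, and Col4a1 in the fit without heterozygous E9.5 replicate 2. At E9.5 5 chains were higher and 0 lower, or 12.8% of those tested, beside 1.89% of all genes (1.19% higher, 0.702% lower). Averaged over both stages 7 chains were higher and 0 lower, or 17.9%, beside 2.96% (1.82% higher). The average count was 3 to 6 in fits that left out 1 library (5 higher and 1 lower without heterozygous E9.5 replicate 2). No chain passed in the test of whether the genotype difference itself changed with stage, where 0.0675% of all genes did (0.00675% higher, 0.0608% lower). At an unadjusted edgeR p under 0.05 there were 5 of the 39 chains, beside 8.6% of all genes. Scaled by total counts alone, 0 chains passed at E9.5, where the median log2 fold change of all genes was then -0.01. The E9.5 count was 1 without homozygous replicate 1, 2 without homozygous replicate 2 or 3, 3 without heterozygous replicate 1, and 3 without heterozygous replicate 2, of which 2 were higher and 1 lower.

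Groups without overlap were counted as well. At E9.0 all 3 homozygous libraries lay above all 3 heterozygous ones for 9 chains and below for 2, shares of 23.1% and 5.13%, beside 9.07% and 8.2% of all genes. At E9.5 the numbers were 11 above and 2 below, 28.2% and 5.13%, beside 11.4% and 9.47% of all genes. Of the chains above at E9.0, Col4a1, Col4a2, Col18a1, Col9a2 and Col13a1 were above at E9.5 too.

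The type IV chains Col4a1 and Col4a2 were higher in homozygous libraries. Col4a1 was at 326, 334 and 350.1 CPM in heterozygous and 404, 409.7 and 428 CPM in homozygous libraries at E9.0. At E9.5 it was at 369.8, 276 and 392 CPM against 523, 469 and 465 CPM. All homozygous libraries lay above all heterozygous ones within each stage. The log2 fold change was 0.30 ± 0.10 at the earlier stage (edgeR adjusted p = 0.212), 0.49 ± 0.10 at the later (edgeR adjusted p = 0.0178) and 0.39 ± 0.07 on average (edgeR adjusted p = 0.00562). Without heterozygous E9.5 replicate 2 it was 0.35 at E9.5 and still passed (edgeR adjusted p = 0.0168), while without homozygous replicate 1 the call was lost (edgeR adjusted p = 0.0693).

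Col4a2 was at 189.7, 192 and 205 CPM in heterozygous and 219, 212 and 248 CPM in homozygous libraries at E9.0, and at 237, 185 and 244 CPM against 291, 287 and 272 CPM at E9.5. Its groups did not overlap either, and it passed on average (0.28 ± 0.06, edgeR adjusted p = 0.0235) but not at E9.0 (0.21 ± 0.09, edgeR adjusted p = 0.326) or later (0.35 ± 0.09, edgeR adjusted p = 0.0555). Col4a1 and Col4a2 overlap by their first bases on opposite strands, and whether counting used strand is not given in the sources used here. Col4a5 and Col4a6 did not pass, at -0.04 ± 0.09 and 0.01 ± 0.08 at E9.5. Col4a3 was at 0.0734, 0.0536 and 0.129 CPM against 0.451, 0.63 and 0.405 CPM at E9.0 and at 0.213, 0.235 and 0.142 against 0.371, 0.399 and 0.113 CPM at E9.5, apart at the first stage and overlapping at the second. With only 1 to 13 counts per library, it passed on average (1.501 ± 0.39, edgeR adjusted p = 0.0474), a call kept in 1 of 12 fits that left out 1 library, that without homozygous E9.5 replicate 3. The average call of Col4a2 was lost in 5 of 12 such fits, without heterozygous E9.0 replicate 1 or 2, homozygous E9.0 replicate 3 or homozygous E9.5 replicate 1 or 2 (edgeR adjusted p up to 0.068). Over the 6 type IV chains the E9.0 median was 0.26 and the E9.5 median 0.42, against all genes centred on 0, and it was 0.19 at E9.5 over the 4 chains with at least 50 counts on average.

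Col18a1 (chr10:77052178-77166548, minus strand, GENCODE M21 on GRCm38) was higher in homozygous libraries by about the same at both stages. It was at 430.5, 375 and 397 CPM in heterozygous and 465, 465 and 484 CPM in homozygous libraries at E9.0, and at 443, 420.0 and 431 CPM against 499, 512 and 507 CPM at E9.5. The groups were close together but apart, with log2 fold changes of 0.23 ± 0.06, 0.23 ± 0.06 and 0.23 ± 0.04 for the first stage, the second stage and the average. The edgeR adjusted p was 0.0778, 0.0468 and 0.00378, in that order. The call at E9.5 was lost in each of the 6 fits without 1 library, and the average was kept in all 12. Its relative Col15a1, of the basement membranes of vessels and muscle, was at 9.79, 4.99 and 12.3 CPM in heterozygous and 16.8, 14.4 and 19.95 CPM in homozygous E9.5 libraries, apart from each other but with a change of 0.93 ± 0.26 that did not pass (edgeR adjusted p = 0.118). Without heterozygous replicate 2 it was 0.63 (edgeR adjusted p = 0.0795), and the average over stages then passed (0.51, edgeR adjusted p = 0.028, against 0.65 and 0.115 with it).

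Endothelial cells are a known source of Col4a1, Col4a2, Col18a1 and Col15a1, and markers of endothelium moved in the same direction. All 14 were on the higher side in homozygous libraries at both stages, where 49.0% and 49.2% of all genes were. At E9.0 0 passed edgeR (3 at an unadjusted p under 0.05) and at E9.5 8 did, beside the 1.89% of all genes, among them the receptors Tek (0.64 ± 0.09, edgeR adjusted p = 0.00108) and Kdr (0.64 ± 0.11, edgeR adjusted p = 0.00768). Without heterozygous E9.5 replicate 2, the library with the lowest endothelial sum, 5 passed, with Tek at 0.54 and Kdr at 0.50. The marker sum ran from 326.5 to 350.8 CPM in heterozygous and 388.4 to 397.4 CPM in homozygous libraries at E9.0, and from 206.3 to 297.7 CPM and 373.7 to 428.3 CPM at E9.5, and no marker was at 0. With stage the markers and these chains parted. In heterozygous libraries 7 markers fell and 0 rose, beside 16.0% and 19.2% of all genes (5 and 1 without heterozygous E9.5 replicate 2). In homozygous libraries 1 fell and 2 rose, beside 15.8% and 19.6%. The median marker changes were -0.43 and -0.03, while those of Col4a1, Col4a2, Col18a1 and Col15a1 were all positive. The 6 parietal endoderm markers, a list that shares Lamb1 and Sparc with matrix lists used here, ran from 481.9 to 499.6 and 548.9 to 574.0 CPM at E9.0, and 451.3 to 482.3 and 543.3 to 604.5 CPM at E9.5, with 3 past the test at E9.5 with and without that library. The 7 surface ectoderm markers ran from 369.6 to 436.6 and 464.2 to 491.3 CPM at E9.0, and 340.2 to 393.4 and 399.4 to 499.3 CPM at E9.5, with 1 past the test at E9.5 and 0 without that library. The part of these in the collagen differences was not tested.

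Type VI, the beaded filaments near cell surfaces, differed at E9.5. Col6a1 was at 6.71, 5.14 and 6.54 CPM in heterozygous and 10.4, 9.46 and 9.56 CPM in homozygous E9.5 libraries, and at 5.51, 5.74 and 4.69 and 6.77, 5.21 and 5.88 CPM at E9.0. Col6a2 was at 7.77, 5.14 and 8.2 CPM against 11.5, 10.4 and 11.4 CPM at E9.5, and at 5.87, 4.83 and 5.16 against 5.11, 4.41 and 5.81 CPM at E9.0. The genotypes were apart at E9.5 and overlapped at E9.0 for both chains. At E9.5 Col6a1 was 1.6-fold higher (0.68 ± 0.13, edgeR adjusted p = 0.0113), a call kept in all 6 fits without 1 library, and Col6a2 1.58-fold higher (0.66 ± 0.15, edgeR adjusted p = 0.0319), kept in 2 of 6 and lost without any 1 homozygous library or without heterozygous replicate 2 (0.48, edgeR adjusted p = 0.088). The change of that difference between stages did not pass, at 0.52 ± 0.20 and 0.71 ± 0.24 (edgeR adjusted p = 0.492 and 0.399). Their partner Col6a3 did not pass at E9.5 (0.53 ± 0.26, edgeR adjusted p = 0.398), with 0.22 without heterozygous replicate 2. Averaged over stages, Col6a1 passed at 0.42 ± 0.10 (edgeR adjusted p = 0.0301), a call kept in 5 of 12 fits without 1 library and lost without heterozygous E9.5 replicate 2 (0.37, edgeR adjusted p = 0.0529). Both genes lie on the minus strand, Col6a1 at chr10:76708792-76726168 and Col6a2 at chr10:76595762-76623630.

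Among cartilage chains, Col9a2 alone passed in the genotype comparisons. Type IX collagen sits on the surface of cartilage fibrils and is built from Col9a1, Col9a2 and Col9a3. Col9a2 (chr4:121039385-121055322, plus strand) was at 6.17, 7.78 and 7.87 CPM in heterozygous and 8.87, 8.19 and 12.2 CPM in homozygous libraries at E9.0, and at 8.81, 8.48 and 10.1 CPM against 13.5, 13.5 and 14.9 CPM at E9.5. Every homozygous library lay above the heterozygous ones of its stage. The change was 0.41 ± 0.15 at the earlier stage (edgeR adjusted p = 0.255), 0.62 ± 0.13 at the later one (edgeR adjusted p = 0.021) and 0.51 ± 0.10 on average (edgeR adjusted p = 0.00901). The call at E9.5 was kept in 1 of 6 fits without 1 library, that without heterozygous replicate 3, and the average in all 12. Its partner Col9a3 was at 3.02, 3.93 and 4.23 CPM against 3.17, 4.08 and 3.19 CPM at E9.5, and Col9a1 at 45.8, 27 and 51.3 against 61.1, 34.9 and 47.2 CPM, both with overlapping groups.

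The ratio of Col9a2 to Col9a3 per kb was 1.48, 1.89 and 1.69 in heterozygous and 2.16, 1.99 and 2.69 in homozygous libraries at E9.0, and 3.04, 2.25 and 2.48 against 4.42, 3.45 and 4.87 at E9.5. It was higher in every homozygous library of a stage (log2 differences 0.43 and 0.71, exact permutation p = 0.1 each). Col2a1 did not pass at either stage, with 0.15 ± 0.06 and 0.10 ± 0.06, and Col27a1 was lower without overlap at E9.0 (-0.33 ± 0.08, edgeR adjusted p = 0.108) and gave 0.07 ± 0.08 in E9.5 libraries. Over the 7 tested cartilage chains the E9.0 median was 0.12 (0.0627 to 0.16 when single libraries were left out) and the E9.5 median 0.15 (0.0540 to 0.22).

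No fibrillar chain passed in any genotype comparison with edgeR and all libraries (2 of 11 had an unadjusted p under 0.05 at each stage), and the class median was 0.03 at E9.0, with either sign when single libraries were left out (-0.0431 to 0.13), and 0.15 at E9.5 (0.0956 to 0.22). Col3a1 at E9.5 had a mean of 342 ± 149.8 CPM (SD, n = 3) in heterozygous and 540.1 ± 112 CPM in homozygous libraries, a change of 0.66 ± 0.34 (edgeR adjusted p = 0.465) that was 0.34 without heterozygous replicate 2. Col1a1 went from 0.42 ± 0.29 to 0.10 in the same way. Col1a2 had the opposite sign, at -0.21 ± 0.27 (edgeR adjusted p = 0.838) with all libraries. Without heterozygous replicate 2, whose 90.7 CPM lay below all others of E9.5, Col1a2 was lower in homozygous libraries and passed (-0.50, edgeR adjusted p = 0.0312), as did its average over stages (-0.30, edgeR adjusted p = 0.0368). Leaving out the lowest heterozygous value moves the change in this direction by construction, so these p-values are not independent of that choice.

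**Figure D3:**
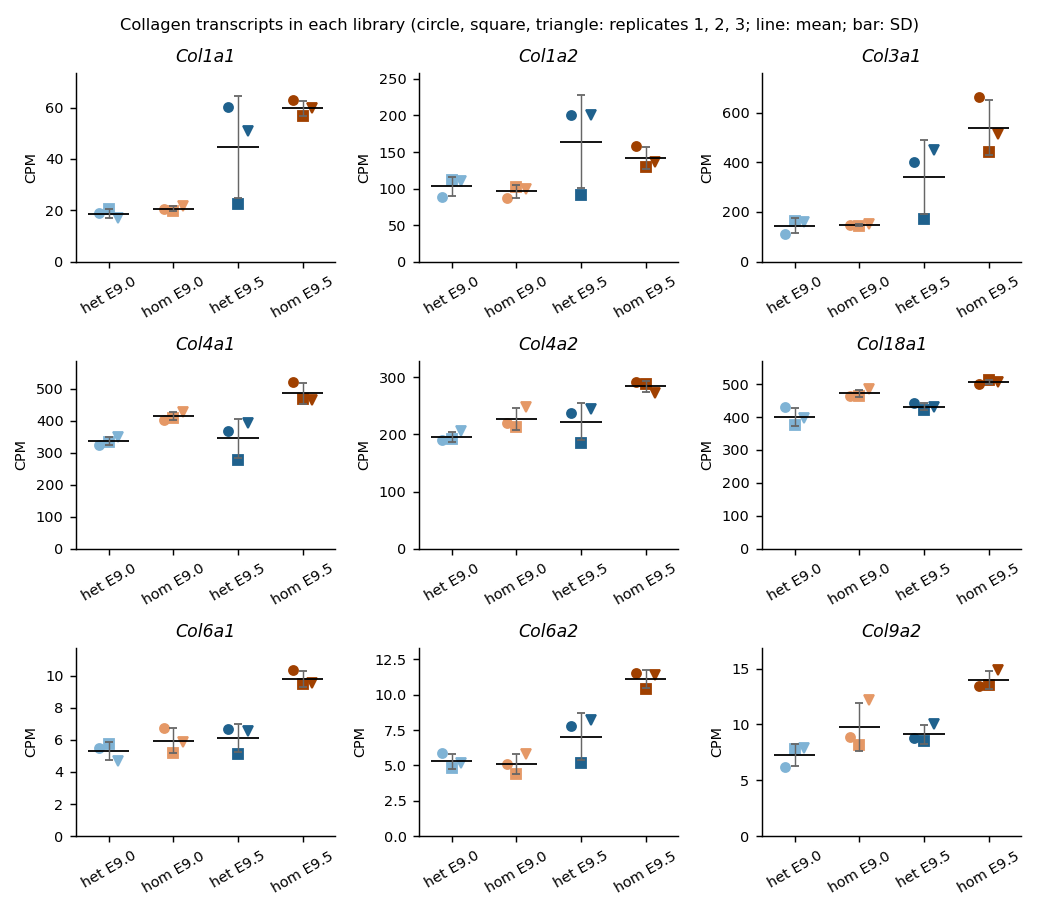
CPM of 9 collagen chains in each of the 12 libraries (het for heterozygous, hom for homozygous, markers for replicates 1 to 3, black lines for means, bars for SD). Heterozygous E9.5 replicate 2, the square, lies far below its group for Col1a1, Col1a2 and Col3a1, and the homozygous E9.5 points lie above all heterozygous E9.5 points for Col4a1, Col4a2, Col18a1, Col6a1, Col6a2 and Col9a2.

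Ratios between chains of 1 library are free of the scaling between libraries, and that of the type I chains was higher in every homozygous library at E9.5. The ratio of Col1a1 to Col1a2 per kb was 0.193, 0.165 and 0.138 in heterozygous and 0.213, 0.174 and 0.197 in homozygous libraries at E9.0. At E9.5 it was 0.272, 0.222 and 0.229 in heterozygous and 0.357, 0.394 and 0.394 in homozygous libraries. Heterozygous E9.5 replicate 2 lay with its group here, and every homozygous library lay above every heterozygous one (log2 difference 0.67, exact permutation p = 0.1, between 0.61 and 0.76 when single libraries were left out). The E9.0 groups overlapped, at a difference of 0.24. Type I trimers hold more Col1a1 than Col1a2 protein chains, while the transcript of Col1a2 was the more abundant per kb in all 12 libraries.

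The ratio of Col3a1 to Col1a2, chains of different trimers and a pair chosen after its values were seen, was 1.93, 1.81 and 2.16 in heterozygous and 4.02, 3.29 and 3.62 in homozygous E9.5 libraries, a log2 difference of 0.89 with no overlap. At E9.0 the pair was at 1.19, 1.42 and 1.39 and 1.66, 1.35 and 1.46, with overlap. Of the 9 partner pairs chosen for their trimers, 3 had genotypes without overlap at E9.5 (Col1a1 to Col1a2, Col9a2 to Col9a3 and Col4a1 to Col4a2) and 1 at E9.0, and adjusted over the 9 pairs the smallest exact permutation p was 0.3 at E9.5 and 0.45 at E9.0. Col4a1 to Col4a2 went from 1.52, 1.46 and 1.57 to 1.75, 1.59 and 1.67, a log2 difference of only 0.14. By stage, 5 pairs in heterozygous and 6 in homozygous libraries had no overlap. The smallest exact permutation p adjusted over the 9 pairs was 0.18 and 0.15, in that order. With 3 libraries against 3 the unadjusted p cannot go below 0.1. No pair could therefore pass this test, by genotype or by stage, and it cannot decide whether the ratios differed. The largest difference by stage was that of Col11a1 to Col11a2 at 5.66, 7.68 and 7.76 and then 19.1, 12.5 and 13.8 in heterozygous libraries.

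**Figure D4:**
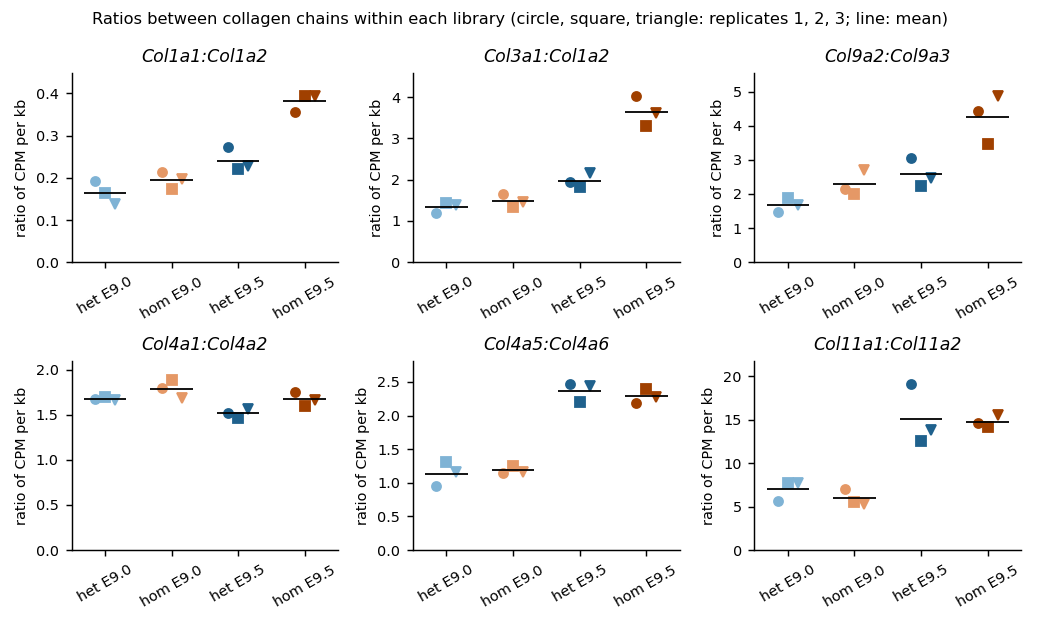
Ratios of CPM per kilobase between 6 pairs of collagen chains within each library (het for heterozygous, hom for homozygous, markers for replicates 1 to 3, black lines for means). Homozygous E9.5 libraries lie above heterozygous ones for Col1a1 to Col1a2 and Col3a1 to Col1a2, and both E9.5 groups lie above both E9.0 groups for Col4a5 to Col4a6.

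Of the remaining chains, only Col13a1, a membrane-spanning collagen of cell junctions, passed in a genotype comparison. It was at 6.61, 7.08 and 6.32 CPM in heterozygous and 7.97, 9.45 and 8.24 CPM in homozygous libraries at E9.0, and at 9.3, 6.4 and 8.1 against 9.65, 10.2 and 12 CPM at E9.5. The groups were apart at both stages and the average change was 0.39 ± 0.10 (edgeR adjusted p = 0.0449, kept in 1 of 12 fits without 1 library, that without heterozygous E9.5 replicate 1). Col14a1 was higher on average in homozygous libraries at E9.0 (0.72 ± 0.38) and lower at E9.5 (-0.43 ± 0.28), neither past the test. Without heterozygous E9.5 replicate 2 its E9.5 change was -0.75 (edgeR adjusted p = 0.0957). Of the 9 fibril-associated chains, 4 had a positive change at E9.5 and 1, Col9a2, passed.

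**Figure D5:**
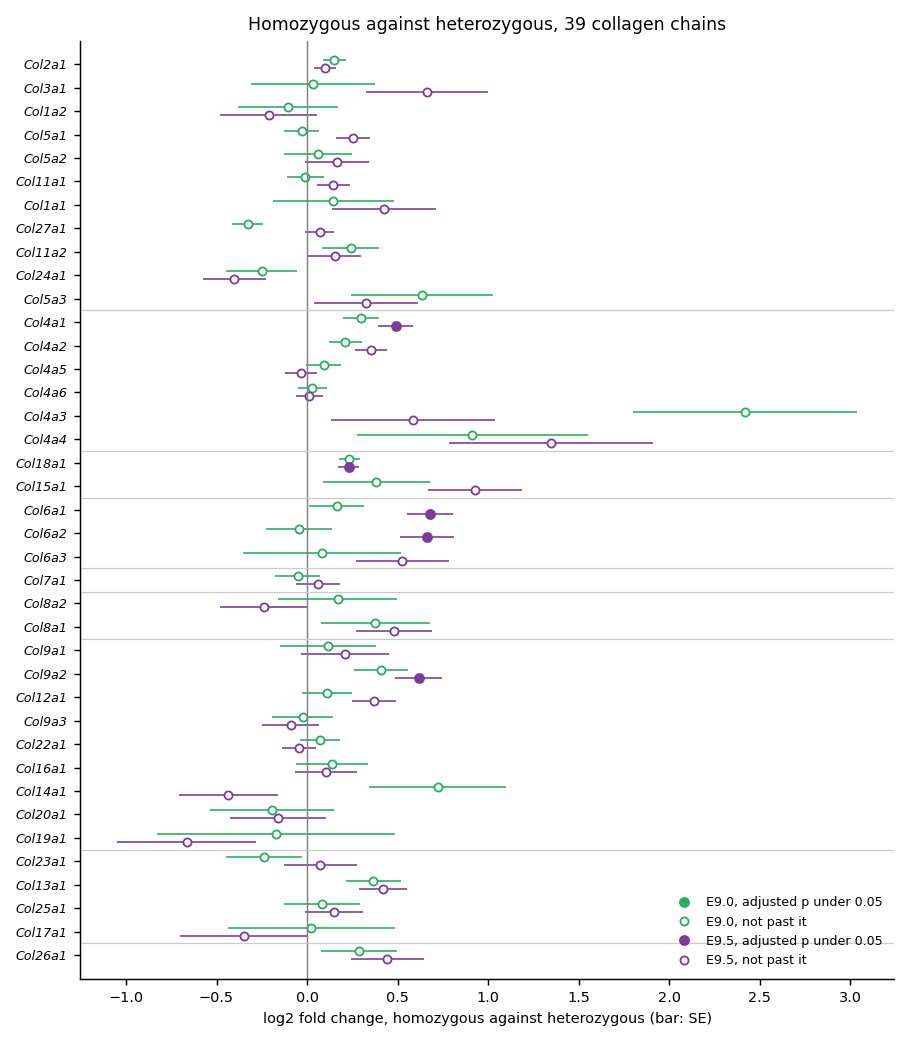
Log2 fold change of homozygous against heterozygous libraries for the 39 tested collagen chains at E9.0 and E9.5, by class in the order of the plot of levels (bars are standard errors, filled points passed an edgeR adjusted p of 0.05). The 5 filled points, all at E9.5 and all right of 0, are Col4a1, Col18a1, Col6a1, Col6a2 and Col9a2.

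The machinery around the chains was read from lists of its genes. Of 19 enzymes and chaperones that modify and fold collagen in the endoplasmic reticulum, 0 passed in the genotype comparison at either stage in edgeR, with 2 at an unadjusted p under 0.05 at E9.0 and 9 at E9.5, where 18 of 19 changes were positive with a median of 0.24. Of all genes, 13.3% and 13.4% had such a p at the 2 stages and 49.2% were positive at E9.5. On average over stages P3h2, a prolyl hydroxylase of basement membrane collagen, was higher (0.30 ± 0.06, edgeR adjusted p = 0.0185). Of the 16 tested genes of secretion and processing, 0 passed at E9.0 and 1 at E9.5, beside 0.587% and 1.89% of all genes. That 1 was Sec24d, a coat protein of the vesicles that carry procollagen. Sec24d was at 22, 18.4 and 21.5 CPM in heterozygous and 28.5, 28.8 and 33.4 CPM in homozygous E9.5 libraries, well apart (0.55 ± 0.09, edgeR adjusted p = 0.00362), a call kept in all 6 fits without 1 library.

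In the genotype comparisons at E9.0, at E9.5 and on average, 0.587%, 1.89% and 2.96% of all genes passed. Of 7 crosslinking enzymes, Tgm2, a transglutaminase, passed at both stages and on average (0.33 ± 0.05, edgeR adjusted p = 0.00102, kept in all 12 fits without 1 library). It was at 19.2, 19.5 and 18.4 CPM against 24.6, 23.6 and 25.3 CPM at E9.0 and at 39.3, 38.6 and 40.4 against 45.6, 49.9 and 50.5 CPM at E9.5 with no overlap (0.36 ± 0.07 and 0.30 ± 0.06, edgeR adjusted p = 0.0295 and 0.021). The call at E9.0 was kept in 1 of 6 fits without 1 library and lost in 5 of 12 other settings, and the call at E9.5 was kept in 2 of 6 and lost without heterozygous replicate 2 (0.29, edgeR adjusted p = 0.0862). Of 8 tested collagen receptors, the integrin chains Itga1 and Itga11 were higher at E9.5, beside 1.89% of all genes called. Itga11, a receptor chain for fibrillar collagen, was at 0.701, 0.675 and 1.1 CPM against 1.99, 1.63 and 2.29 CPM (1.26 ± 0.27, edgeR adjusted p = 0.0218), and Itga1, which binds type IV collagen, was at 11.7, 8.83 and 11.5 against 14.1, 14.9 and 16.9 CPM (0.52 ± 0.12, edgeR adjusted p = 0.0322). Both were apart between genotypes, but each call was kept in 2 of 6 fits without 1 library. Without heterozygous replicate 2 Itga11 was at 1.13 (edgeR adjusted p = 0.0927) and Itga1 at 0.40 (edgeR adjusted p = 0.126).

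Of 21 other basement membrane components, 0 passed at E9.0 and 2 at E9.5, the laminin chains Lamb1 (0.34 ± 0.06, edgeR adjusted p = 0.00768) and Lama4 (0.41 ± 0.09, edgeR adjusted p = 0.0281), beside 1.89% of all genes called. The call of Lamb1 was kept in all 6 fits without 1 library, and that of Lama4 in 2 of 6 and not without heterozygous replicate 2 (0.31, edgeR adjusted p = 0.121). Sec24d, Tgm2, Itga1, Lamb1 and Lama4 no longer passed at E9.5 when only total counts set the scale. Their log2 fold changes moved little over the settings other than leaving out 1 library. In that order they were 0.54 to 0.56, 0.28 to 0.31, 0.51 to 0.53, 0.31 to 0.34 and 0.39 to 0.41. Averaged over stages, Lamb1 and the integrin ligand Npnt were higher by 0.28 and 0.22. Of 10 transcription factors known to act on collagen genes and 9 tested collagen-cleaving enzymes and their inhibitors, 0 passed at either stage in edgeR, with 2 and 1 at an unadjusted p under 0.05 at E9.0 and 2 and 5 at E9.5. None of these lists had a member past the test on the lower side in a genotype comparison.

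With stage, 35.2% of all genes were called in heterozygous and 35.4% in homozygous libraries, and the counts of these lists are to be read beside those shares. Of the 19 synthesis enzymes and chaperones, 3 rose and 1 fell in heterozygous and 7 rose and 1 fell in homozygous libraries, where the prolyl hydroxylase P4ha3 rose most (2.30 ± 0.41, edgeR adjusted p = 0.000455) and P3h2 was the fall (-0.33 ± 0.09, edgeR adjusted p = 0.00914). P4ha3 was low, at 0.301, 0.115 and 0.203 CPM in homozygous E9.0 libraries and 0.843, 1.23 and 0.9 CPM at E9.5. Of the 16 secretion and processing genes, 5 rose and 2 fell in heterozygous and 8 rose and 1 fell in homozygous libraries, with Pcolce, the enhancer of procollagen cleavage, up by 1.13 and 1.28 (edgeR adjusted p = 0.000787 and 0.000327). Of the 10 transcription factors, 1 rose and 4 fell in heterozygous and 2 rose and 3 fell in homozygous libraries, with Sp7 among the falls in both (-1.91 and -1.71, edgeR adjusted p = 6.89e-05 and 0.000243). Of the 8 receptors, 2 rose in heterozygous and 4 in homozygous libraries and 0 fell in either, with Itga1 and the discoidin receptor Ddr1 among them in both. Of the 7 crosslinking enzymes, 2 rose and 1 fell in heterozygous and 3 rose and 0 fell in homozygous libraries, Tgm2 and Loxl1 rising in both. Of the 21 other basement membrane components, 7 rose and 2 fell, and 8 rose and 1 fell, with Smoc1 falling in both genotypes. Of the 9 collagen-cleaving enzymes and inhibitors, 1 rose and 3 fell in heterozygous and 3 rose and 2 fell in homozygous libraries. The gelatinase Mmp9 fell by 1.68 in heterozygous and 1.11 in homozygous libraries (edgeR adjusted p = 0.000318 and 0.00395).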

How the data were processed

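The authors deposited 1 table of raw read counts per gene symbol for the 12 libraries, 24421 symbols in all. Cutadapt, STAR and featureCounts are named with the mm10 build and MultiQC in the submitters' processing notes, without versions. The annotation, the strand setting and the treatment of reads that match several places are not given in the sources used here. Counts of overlapping genes may therefore be mixed.

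Counts were analysed as deposited in R 4.3.3 with edgeR 4.0.16 (TMM factors, filterByExpr, robust quasi-likelihood fit of 1 mean per group, all 12 libraries together, 2-sided test, Benjamini-Hochberg adjustment over all 14810 tested genes, threshold 0.05). TMM factors were 0.664 in heterozygous E9.0 replicate 1, where the ribosomal row Rn45s took 37.4% of counts, and 0.924 to 1.11 in the others. CPM are counts scaled to the TMM-adjusted library size. CPM per kb divide by the longest protein-coding transcript in GENCODE M21, for which 23376 symbols matched directly, 657 through a RefSeq synonym and 388 not at all. The common coefficient of biological variation was 8.77%. Ratios within a library were compared by exact 2-sided permutation. Alternatives were limma-voom (3.58.1), DESeq2 (1.42.0), other scalings and filters, GC and length offsets, the replicate number as a block, and leaving out each library. The scripts were tested on simulated data.

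Per-library values are given for chains past the threshold in a genotype test, up to 4 of the largest rises and falls past the threshold with stage in heterozygous libraries (2 fell; at least 10 counts on average), the 5 highest per kb, and their partners. Genes of the other lists are named if past the threshold, up to 6 a list for genotype and the 2 largest each way for stage; a listed gene is not reported here. Members and lists were chosen with earlier results of these data known.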

Additional observations from a re-analysis of the deposited data

How the results depend on the processing

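The 48 single-chain results past the threshold had 894 values in all under alternative settings. Of these values, 784 kept the call, 110 lost it and 0 changed sign. Counts of called chains moved in these settings: at E9.0 1 with upper-quartile factors and 1 with DESeq2, at E9.5 0 with total counts only, 3 with GC and length offsets, 3 with only the groups compared and 0 at an adjusted p under 0.01, on average 3 at an adjusted p under 0.01, and with stage in heterozygous libraries 27 with total counts only. With total counts only, which moved the median of all genes to 0.19 at E9.0, -0.19 for the interaction, 0.38 with stage in heterozygous and 0.18 in homozygous libraries, the fibrillar median was -0.0781 for the interaction and 1.02 with stage in heterozygous libraries. The type IV median was then 0.44 at E9.0, -0.14 for the interaction, and 0.48 and 0.25 with stage in heterozygous and homozygous libraries, and the cartilage median 0.31, -0.11, 0.67 and 0.70 in the same comparisons. Over chains with a mean of at least 50 counts the type IV median was 0.19 at E9.5, 0.16 on average and 0.28 with stage in homozygous libraries, and 0.27 there with only the groups compared. Col4a6 changed sign with stage in heterozygous libraries with total counts only (0.31), with GC and length offsets (0.0027) and without E9.5 replicate 3 (0.0050), and in homozygous libraries with total counts only (0.0923). The cause of these shifts was not tested.

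Leaving out single libraries of the groups compared gave 0 to 1 called chains at E9.0, 1 to 6 at E9.5, 3 to 6 on average, 0 for the interaction, 13 to 24 with stage in heterozygous (24 without E9.5 replicate 2) and 16 to 21 in homozygous libraries (25 without heterozygous E9.5 replicate 2, which is in neither group of that comparison). The fibrillar median then ranged from 0.53 to 0.78 with stage in homozygous libraries. The type IV median ranged from 0.30 to 0.47 at E9.5, -0.11 to 0.10 for the interaction, and 0.0555 to 0.24 with stage in heterozygous libraries. The cartilage median ranged from -0.0162 to 0.23 for the interaction and 0.36 to 0.54 with stage in homozygous libraries.

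Replicate numbers did not pair the libraries: deviations of same-numbered libraries from their group means correlated between -0.167 and 0.109. With the number as a block, 5 chains were called at E9.5, 5 on average, 17 with stage in heterozygous and 19 in homozygous libraries, and of the 48 single-chain results 4 lost their call (Col18a1 at E9.5, Col13a1 and Col4a3 on average, Col19a1 with stage). With 3 libraries a group, exact permutation cannot go below 0.1, and chains with few counts such as Col4a3, Col4a4 and Col19a1 carry little information.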
